A study of Mus musculus with 4 samples.

Results

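The genes of central sugar metabolism below hexokinase were followed in mouse small intestinal (SI) organoids with added miR-181a-5p. The set was a list of 36 enzyme genes of glycolysis, gluconeogenesis and the pentose phosphate pathway, out of 55487 genes in the tables, and its rule uses the enzymes' names and no measured value. All organoids were grown from mouse intestinal crypts, transduced with lentivirus and kept in puromycin at 2 μg/ml. The 2 control libraries (control 1 and control 2) came from organoids with a miRNA mimic control, and the 2 mimic libraries (mimic 3 and mimic 4) from organoids with a miR-181a-5p mimic. A mimic supplies extra mature miRNA. The age, sex and strain of the mice were not given in the labels, and neither were separate transductions within a group, so that p-values measure only the spread between these libraries. The libraries held 31104884 to 38111731 expected counts, which are estimates of the reads from each gene. The epithelial list was expressed throughout (Epcam, the epithelial adhesion molecule, at 825 to 890 normalized CPM), whereas Col1a2, Col3a1, Dcn, Cdh5 and Kdr, which define mesenchyme and endothelium, were at 0 in all 4 libraries. Other genes of these lists had few counts: Pdgfrb 29 to 61, Pdgfra 0 to 17, Col1a1 2 or 3, and Pecam1 10 and 8 in control libraries against 11 and 27 in mimic libraries.

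Glycolysis converts glucose to pyruvate, and lactate dehydrogenase turns pyruvate into lactate. Phosphofructokinase is the main control point below hexokinase, and it is stimulated by fructose 2,6-bisphosphate, which the PFKFB enzymes make and remove. Gluconeogenesis runs the path backwards with its own enzymes at the irreversible steps, ending with glucose 6-phosphatase. The pentose phosphate pathway branches off at glucose 6-phosphate: its oxidative branch yields NADPH and its non-oxidative branch reshuffles sugars to ribose 5-phosphate and back. In the intestinal crypt, glycolysis is known to be prominent in proliferating epithelial cells, and the question here is which of these enzyme mRNAs differed between organoids with the mimic and those with the control.

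Of the 36 genes, 35 passed the filter on low counts and were tested. With the mimic, 1 gene rose (G6pc) and 2 fell (Pfkm and Pfkfb4) with the adjusted p below 0.05 (quasi-likelihood test of edgeR). These are 2.86% and 5.71% of the tested members, against 1.28% of all 17155 tested genes that rose and 2.29% that fell. No member passed both this threshold and a fold change of 2, which 0.589% of all genes did upwards and 1.47% downwards. At an unadjusted p under 0.05, 5 members were higher and 4 lower (11.8% and 13.0% of all genes). With DESeq2, 0 members were higher and 1 was lower (Ldhb) past both thresholds. The median log2 fold change of the tested members was 0.01, beside -0.01 over all tested genes, with 18 members above 0 and 17 below. In normalized CPM, which are counts scaled to a common library size, the 2 groups did not overlap for 10 members that were higher with the mimic and 8 that were lower. These are 28.6% and 22.9% of the tested members, and the shares over all genes were 28.9% and 29.5%, so the members lay close to or below the background.

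miRNAs bind through their seed, bases 2 to 8, and a 7mer-m8 site is the complement of these bases. The mature miR-181a-5p is printed with its seed in capitals, followed by the sites in members with some neighbouring bases and the site in capitals (RefSeq for the miRNA, GENCODE release M21 transcripts on GRCm38 for the sites). They are shown because the mimic carries this sequence.
mmu-miR-181a-5p: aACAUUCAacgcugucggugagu
H6pd: gagactcctggTGAATGTcttgctct
Pck2: acatagctgccTGAATGTgtgtgcac
Pfkp: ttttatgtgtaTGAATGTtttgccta
Pklr: cacacaggcccTGAATGTctgggtcc
Pkm: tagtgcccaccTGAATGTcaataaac
Rpia: tttttgttgttTGAATGTtttcttta

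The printed windows lie at chr4:149981160-149981185 (H6pd, reverse strand), chr14:55550777-55550802 (Pck2, forward), chr13:6580330-6580355 (Pfkp, reverse), chr3:89145672-89145697 (Pklr, forward), chr9:59679332-59679357 (Pkm, forward) and chr6:70765826-70765851 (Rpia, reverse), all in the longest annotated 3' UTR. Of the 34 tested members with a 3' UTR of at least 50 bases, 6 held such a site (17.6%), and of 12913 tested genes 2468 did (19.1%). The members' 3' UTRs were shorter, with a median of 747 bases against 1335, and the shares were not corrected for length. The longer 8mer site TGAATGTA was in 0 of the 34 members and in 6.26% of the tested genes. The 6 genes with a site had log2 fold changes from -0.19 (H6pd) to 0.18 (Pklr), 3 above 0 and 3 below, and none was called (lowest adjusted p 0.409). G6pc, Pfkm and Pfkfb4 held no 7mer-m8 site in the longest annotated 3' UTR.

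Levels are compared between genes in TPM, which corrects for transcript length. Gapdh was the highest member, at 2044 to 3052 TPM. Together with Gpi1, Aldoa, Tpi1, Pgk1, Eno1, Pkm and Ldha it formed the 8 members above 500 TPM in every library. At the other end, 7 members were under 5 TPM in every library, namely Pfkfb1, Pgam2, Eno2, Eno3, Ldhb, Pck1 and Pcx. Summed over isozymes, phosphofructokinase mRNA was at 220 to 340 TPM, below aldolase (1201 to 1951 TPM for Aldoa and Aldoc) and enolase (917 to 1426 TPM). Among the gluconeogenic steps, fructose bisphosphatase stood at 160 to 224 TPM and PEP carboxykinase at 43.8 to 52.1 TPM. Glucose 6-phosphatase was at 13.8 to 31.3 TPM and pyruvate carboxylase at 2.33 to 4.05 TPM.

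**Figure D1:**
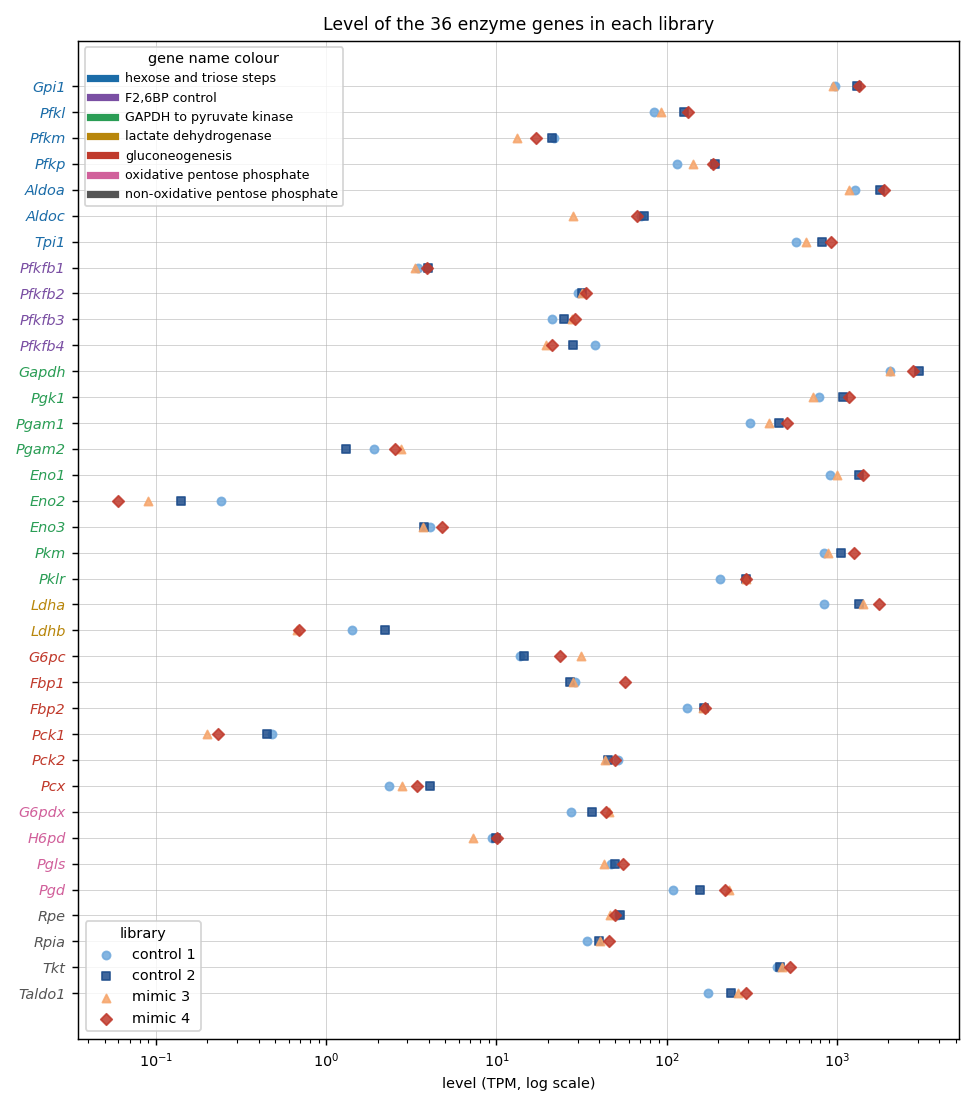
The level of each of the 36 enzyme genes is plotted in TPM on a log scale, with 1 point for each of the 4 libraries and the gene names coloured by role. The genes span from Eno2, at 0.06 to 0.24 TPM, to Gapdh, at 2044 to 3052 TPM, and for most genes the 4 points lie close together on this scale.

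In gluconeogenesis, G6pc rose. G6pc encodes the catalytic subunit of glucose 6-phosphatase, which frees glucose from glucose 6-phosphate, and lies on the forward strand at chr11:101367561-101377903 (GRCm38). Its normalized CPM was 27.1 in control 1 and 28.2 in control 2, and 61.1 in mimic 3 and 42.1 in mimic 4. Both mimic libraries were above both controls, and mimic 3 was the higher of the pair. The log2 fold change was 0.90 ± 0.17 (SE, edgeR quasi-likelihood test, adjusted p = 0.0403, n = 2 per group), a fold change of 1.87. Without mimic 3 the log2 fold change was 0.61 with an adjusted p of 0.0829. G6pc also missed the threshold without a filter on low counts (adjusted p = 0.0922) and with limma on the TPM scales (0.0989 to 0.314). G6pc is a gene of mature enterocytes as well as of liver and kidney. The list of 10 enterocyte markers had 0 members called higher and 1 called lower (Anpep) by edgeR, as by DESeq2. At an unadjusted p under 0.05, 1 was higher and 3 were lower, and by sign 4 were above 0 and 6 below. Their summed normalized CPM was 5842 and 6878 in control libraries against 5039 and 4882 in mimic libraries. Anpep alone was at 1851 and 1245 against 289 and 412, so the sums lean on this gene and do not describe the list as a whole. The part of these markers in the result was not tested. In bulk libraries, more cells with an mRNA and more of it per cell cannot be told apart, here and in all results that follow.

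The other enzymes of gluconeogenesis did not pass the test. Fbp1, the liver form of fructose bisphosphatase, had 30.1 and 28.3 normalized CPM in control libraries against 31.7 and 56.2 in mimic libraries, so that mimic 4 alone stood clearly above the other libraries. Its log2 fold change was 0.59 ± 0.24 (adjusted p = 0.179), and on the TPM scale mimic 3 (27.98 TPM) lay between the controls (28.8 and 26.9 TPM). Without mimic 3, the comparison of mimic 4 with the controls gave a log2 fold change of 0.95 and an adjusted p of 0.00631, and without mimic 4 the values were 0.12 and 0.732. Fbp2, known as the muscle form, was the more abundant of the pair. Its normalized CPM was 140 and 174 in control libraries against 173 and 162 in mimic libraries (log2 fold change 0.10 ± 0.12, adjusted p = 0.658).

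Pck1, the cytosolic PEP carboxykinase, was nearly absent, with 40 and 27 expected counts in control libraries against 12 and 15 in mimic libraries. In normalized CPM it was at 1.04 and 0.87 against 0.38 and 0.42, so that the groups were apart, with a log2 fold change of -1.25 ± 0.37 and an adjusted p of 0.0995. The exact test of edgeR gave an adjusted p of 0.0396 for Pck1. The mitochondrial form, Pck2, carried nearly all PEP carboxykinase mRNA. It was at 103 and 92.9 normalized CPM in control libraries against 88.9 and 91.2 in mimic libraries, with a log2 fold change of -0.12 ± 0.10 (adjusted p = 0.469). Pcx, pyruvate carboxylase, which makes oxaloacetate from pyruvate, ranged from 6.76 to 13.0 normalized CPM with overlapping groups. The opposite strand at Pcx holds Lrfn4, whose counts were 186% of those of Pcx.

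**Figure D2:**
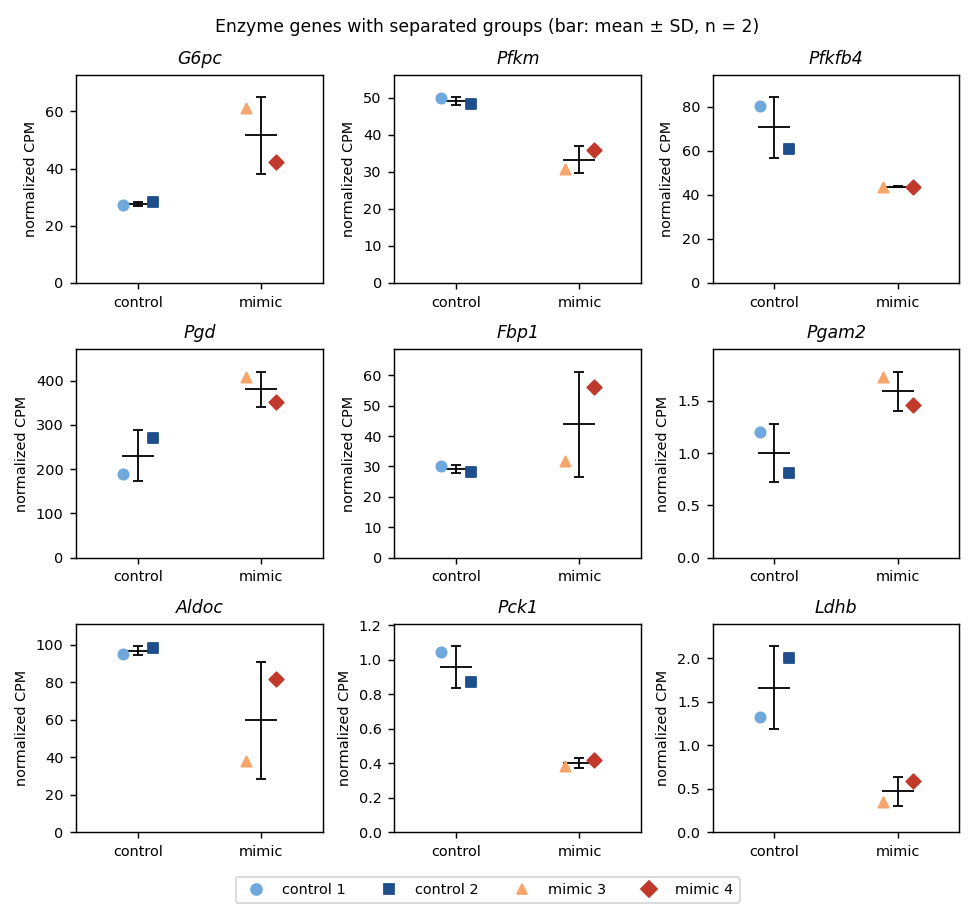
Normalized CPM (linear axis from 0) is plotted for the 9 members whose groups did not overlap and whose log2 fold change was at least 0.5 in size, with 1 symbol per library and the mean ± SD of each group (n = 2). G6pc (27.1 and 28.2 against 61.1 and 42.1) and Pgd (189 and 271 against 409 and 352) lie higher with the mimic and Pfkm and Pfkfb4 lower, while for Fbp1 and Aldoc a single mimic library sets most of the difference.

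At the phosphofructokinase step, Pfkm fell. Pfkm encodes the muscle-type subunit of phosphofructokinase, at chr15:98092589-98132451 (GRCm38, forward strand). Its normalized CPM was 49.9 and 48.3 in control libraries against 30.7 and 35.96 in mimic libraries. The controls were nearly equal and both mimic libraries lay below them. Pfkm was 1.47-fold lower, with a log2 fold change of -0.56 ± 0.12 and an adjusted p of 0.0474. It was -0.54 with an adjusted p of 0.0702 without control 1, and -0.44 with an adjusted p of 0.232 without mimic 3. Pfkm also missed the threshold with library totals alone (adjusted p = 0.0519), without a filter on low counts (0.123) and with limma on the TPM scales (0.18 to 0.337). On the opposite strand Pfkm overlaps Senp1, a SUMO protease gene whose counts (2241 and 2121 in the controls, 2524 and 2943 with the mimic) were 174% of those of Pfkm. Whether the counting used strand is not stated, so reads of this pair may not have been told apart.

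The other subunits of phosphofructokinase were more abundant than Pfkm. Pfkp, the platelet type, had the highest level, with 270 and 443 normalized CPM in control libraries against 322 and 382 in mimic libraries. Its groups overlapped (log2 fold change -0.02 ± 0.21, adjusted p = 0.967), and the sign turned to 0.01 with library totals alone and to 0.15 on log2(TPM + 1). Pfkl, the liver type, ranged from 242 to 345 normalized CPM with overlapping groups. As a share of phosphofructokinase TPM, Pfkp took 51.9% to 57.5%, Pfkl 37.1% to 39.5% and Pfkm 5.04% to 9.86%. The Pfkm share was 8.06% ± 2.53 (SD, n = 2) in the controls and 5.17% ± 0.18 with the mimic. Markers of muscle, where Pfkm is the main form, were nearly absent. Des, Ckm, Myh11 and Tnnt3 were at or near 0 in every library, and Acta1, skeletal alpha-actin, was the 1 tested gene of the 5. Acta1 fell from 40.4 and 23.8 normalized CPM to 10.5 and 10.8 (log2 fold change -1.59 ± 0.24, adjusted p = 0.0189), and its part in the result for Pfkm was not tested.

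Pfkfb4 fell as well. The PFKFB enzymes set fructose 2,6-bisphosphate, and Pfkfb4, at chr9:108991778-109032228 (GRCm38, forward strand), is one of the forms known to respond to hypoxia. It had 80.3 and 60.8 normalized CPM in control libraries against 43.6 and 43.7 in mimic libraries. The mimic libraries were almost equal and lay below both controls, which differed from each other. Pfkfb4 was 1.62-fold lower (log2 fold change -0.69 ± 0.14, adjusted p = 0.0464). The call rested on all 4 libraries except control 2. The adjusted p was 0.0584 without control 1, 0.0891 without mimic 3 and 0.0579 without mimic 4, with log2 fold changes of -0.48, -0.68 and -0.69. With library totals alone it was 0.0526, without a filter on low counts 0.115, and with limma on the TPM scales 0.15 to 0.322.

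The remaining PFKFB genes did not pass the test. Pfkfb2 had the highest TPM of the family averaged over the 4 libraries. In control 1 Pfkfb4 was higher (38.1 against 30.3 TPM), and in control 2 it was lower (28.2 against 31.7 TPM). Pfkfb2 was at 54.5 and 56.7 normalized CPM in control libraries against 59.0 and 56.7 in mimic libraries (log2 fold change 0.06 ± 0.10, adjusted p = 0.746). Pfkfb3 ranged from 52.6 to 70.6 and Pfkfb1 from 3.32 to 3.94. Within the family, the Pfkfb4 share of TPM was 41.0% and 31.7% in control libraries against 23.7% and 24.3% in mimic libraries. The shares of Pfkfb2 (32.5% and 35.6% against 38.4% and 38.3%) and Pfkfb3 (22.8% and 28.2% against 33.8% and 33.0%) were correspondingly higher. Counts of Yod1, on the opposite strand at Pfkfb2, were 63.5% of those of Pfkfb2, and those of Apex2 at Pfkfb1 were 313%.

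**Figure D3:**
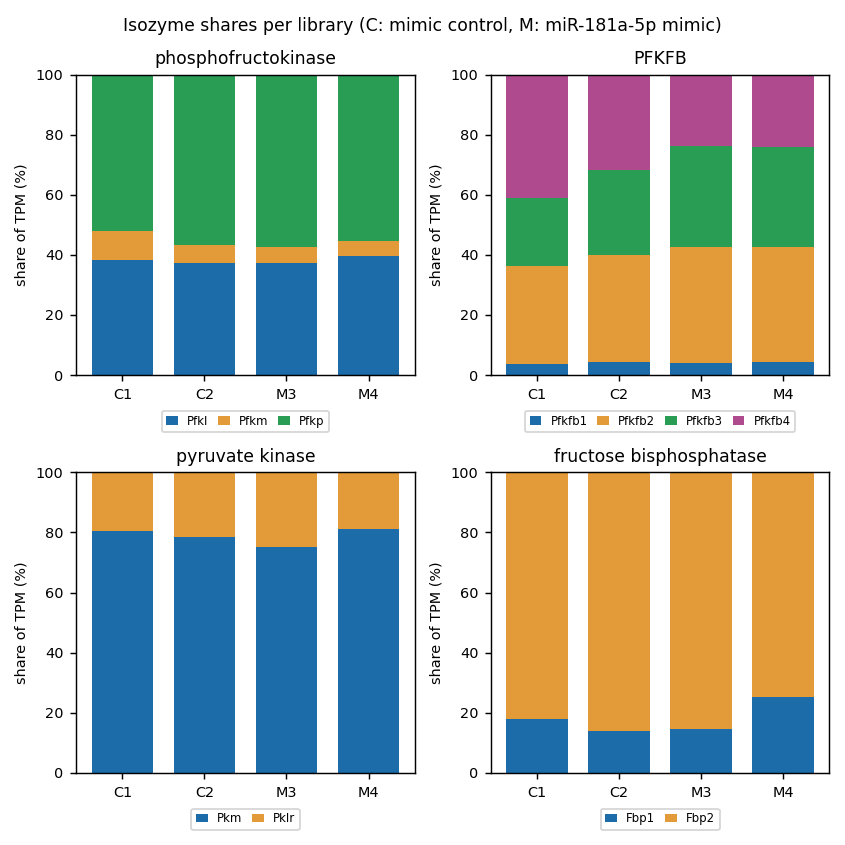
Stacked bars give the share (%) of each isozyme in the summed TPM of its family, for the 2 control (C1, C2) and 2 mimic (M3, M4) libraries. The Pfkfb4 share is 41.0% and 31.7% in control libraries against 23.7% and 24.3% in mimic libraries, and the fructose bisphosphatase shares of 1 mimic library stand apart from the other.

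The chain of abundant enzymes from hexose to pyruvate did not separate the groups. It comprises Gpi1, the isomerase of glucose 6-phosphate; Aldoa, the main glycolytic aldolase; Tpi1, which interconverts the trioses; Gapdh and Pgk1, which yield the first ATP; Pgam1; Eno1; and Pkm. Their log2 fold changes ran from -0.11 (Gapdh) to 0.17 (Pgam1). Aldoa was at 1482 and 2045 normalized CPM in control libraries against 1340 and 1985 in mimic libraries (log2 fold change -0.08 ± 0.22, adjusted p = 0.845). Eno1 was at 1465 and 2144 against 1566 and 2061 (0.01 ± 0.21, adjusted p = 0.989). Pkm was at 1601 and 2001 against 1655 and 2196 (0.10 ± 0.18, adjusted p = 0.777). Pgam1 was at 435 and 643 against 561 and 651 (0.17 ± 0.18, adjusted p = 0.602). In each of these 4 genes, control 2 and mimic 4 were higher than the other library of their group.

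This difference between libraries ran through most of the pathway. Over the 15 tested genes of the steps from glucose 6-phosphate to pyruvate (without the PFKFB genes), the median log2 ratio was 0.46 for control 2 over control 1 and 0.38 for mimic 4 over mimic 3, whereas over all tested genes these medians were -0.01 and 0.00. Both ratios were above 0 in 11 of the 15 genes, or 73.3%, beside 22.2% of all tested genes. The 11 were Gpi1, Pfkl, Pfkp, Aldoa, Aldoc, Tpi1, Gapdh, Pgk1, Pgam1, Eno1 and Pkm, and in 10 of them the groups overlapped. Pfkm, Pgam2, Eno3 and Pklr did not share the pattern. Of all 35 tested members, 21 had both ratios above 0 (60.0%). They included both lactate dehydrogenase genes and 6 of the 8 pentose phosphate genes. Only 1 of 6 gluconeogenic genes and 1 of 4 PFKFB genes did so, and Pfkfb4 was at -0.40 and 0.004. A list of 14 hypoxia-responsive genes outside glycolysis (such as Car9, a carbonic anhydrase, and Ndrg1) moved like the 11 genes. Its medians were 0.53 and 0.44, with both ratios above 0 in 12 genes, or 85.7%. Between mimic and control, 0 of these 14 passed the edgeR test, 6 being above 0 and 8 below, with the lowest adjusted p at Vegfa (0.0562). At an unadjusted p under 0.05, 3 of them were lower, and DESeq2 called 1. The part of these genes in the result was not tested.

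**Figure D4:**
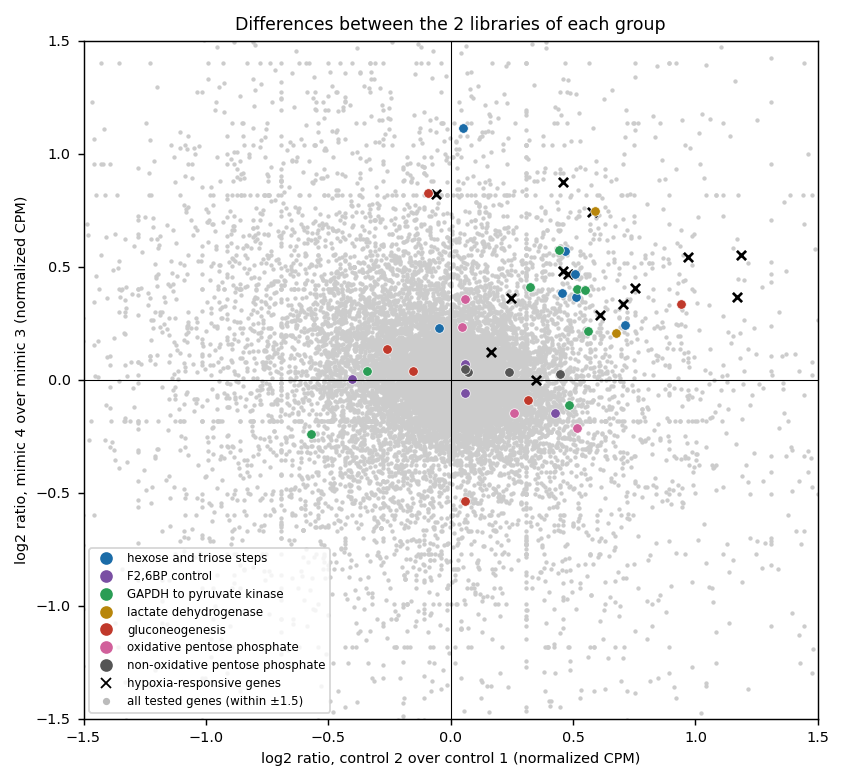
The log2 ratio of normalized CPM of control 2 over control 1 (x axis) is plotted against that of mimic 4 over mimic 3 (y axis) for the 35 tested enzyme genes (coloured by role), the hypoxia-responsive list (crosses) and all tested genes (grey). Most glycolytic genes lie at the upper right with the hypoxia-responsive list, with medians of 0.46 and 0.38 for the steps from glucose 6-phosphate to pyruvate.

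Because of this, leaving out a library moved the abundant enzymes together. The median log2 fold change of the same 15 genes was -0.02 in all libraries, -0.25 without control 1, 0.27 without control 2, 0.18 without mimic 3 and -0.20 without mimic 4. Without control 2, 12 of the 15 were above 0, with Pgam1 at 0.48 and Pklr at 0.44. Without control 1, 13 of the 15 were below 0, with Pgam1 at -0.092 and Pklr at -0.050. The direction of the glycolytic chain as a whole was therefore not fixed by these 4 libraries.

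The hypoxia response core ACGTG was sought on both strands in the 300 bases around each start site (250 before and 50 after, RefSeq, GRCm38.p6). Hypoxia-inducible factors are known to act on glycolytic genes, but their part in the difference between libraries was not tested. The promoter table held all 36 members, and 11 carried a match (30.6%), beside 19.7% of 27025 promoters. Of the 11 genes that varied together between libraries, 4 carried it (Aldoc, Gapdh, Pgk1 and Pgam1). The E-box CACGTG, which contains ACGTG on both strands, was found in 5 members (13.9%, beside 7.24% of all promoters). The antioxidant response core TGACNNNGC was found in 4 members (11.1%, beside 12.5%). Among the 16 enzymes from glucose 6-phosphate to pyruvate, ACGTG was in 5 (31.2%), the E-box in 1 (6.25%) and the antioxidant core in 0. Ldha and Pgk1 are shown because they had matches and high levels, with ACGTG and its reverse complement in capitals. Ldha lies outside the steps from glucose 6-phosphate to pyruvate and was not counted among the 11 genes that varied together. Its log2 ratios were also above 0, at 0.68 for control 2 over control 1 and 0.21 for mimic 4 over mimic 3. The Ldha window lies at chr7:46845554-46845853 and the Pgk1 window at chrX:106186850-106187149, both on the forward strand. A match is a description of letters and not a measured binding site.
Ldha: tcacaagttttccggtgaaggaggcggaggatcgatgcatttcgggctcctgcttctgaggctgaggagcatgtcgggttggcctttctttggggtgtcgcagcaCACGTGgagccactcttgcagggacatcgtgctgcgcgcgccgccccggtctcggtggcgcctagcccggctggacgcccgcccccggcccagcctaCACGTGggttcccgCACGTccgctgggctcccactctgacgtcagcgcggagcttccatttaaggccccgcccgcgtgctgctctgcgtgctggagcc
Pgk1: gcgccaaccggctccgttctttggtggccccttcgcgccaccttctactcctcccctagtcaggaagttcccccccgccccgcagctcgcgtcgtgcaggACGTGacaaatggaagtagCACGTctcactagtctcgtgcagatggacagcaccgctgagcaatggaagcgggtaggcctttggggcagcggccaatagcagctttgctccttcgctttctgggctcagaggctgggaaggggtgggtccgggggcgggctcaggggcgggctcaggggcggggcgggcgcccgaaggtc

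Some members share sequence with other loci, so that reads may have been divided among them. Gapdh had 91 near-identical copies in the annotation, mostly processed pseudogenes, which together held 3.22% to 3.52% of its counts. The 4 copies of Pgk1 held 27.4% to 28.2% of its counts, in nearly the same share in every library, and the level of Pgk1 is uncertain to that extent. Adding the copies' counts to each member left the same 3 genes called. A further gene identifier with the symbol Aldoa held 29 to 45 counts.

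Among the less abundant enzymes of these steps, Aldoc and Pgam2 had groups that did not overlap but did not pass the test. Aldoc, the brain-type aldolase (chr11:78322968-78327781), was at 95.3 and 98.6 normalized CPM in control libraries against 37.9 and 82.0 in mimic libraries, so that mimic 3 was far below the other 3 libraries. The log2 fold change was -0.69 ± 0.30 (adjusted p = 0.202), and it was -1.35 with an adjusted p of 0.000551 without mimic 4 but -0.23 with an adjusted p of 0.551 without mimic 3. Pgam2, the muscle-type mutase, had 46 and 25 expected counts in control libraries against 54 and 52 in mimic libraries, and 1.20 and 0.81 against 1.72 and 1.46 normalized CPM (log2 fold change 0.64 ± 0.32, adjusted p = 0.263). Eno3, the muscle-type enolase, ranged from 3.68 to 4.67 normalized CPM with overlapping groups. Eno2, the neuronal form, was below the filter, with 13 and 9 counts in control libraries against 6 and 4 in mimic libraries, and was not tested. Pgam1 and Eno1 carried at least 99.3% and 99.5% of the TPM of their families.

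Pyruvate kinase was divided between Pkm (75.3% to 81.1% of TPM) and Pklr, the liver and red cell gene, with overlapping groups. Pklr was at 473 and 661 normalized CPM in control libraries against 666 and 617 in mimic libraries (log2 fold change 0.18 ± 0.16, adjusted p = 0.528).

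At lactate dehydrogenase, Ldha encodes the subunit that favours lactate and Ldhb the heart type. Ldha was at 1052 and 1681 normalized CPM in control libraries against 1745 and 2013 in mimic libraries. The mimic libraries were above both controls, but control 2 lay close to mimic 3. The log2 fold change was 0.46 ± 0.22 (adjusted p = 0.236), and 0.84 without control 2. Without control 1 it was 0.15, and without mimic 4 it was 0.36. Ldhb was barely present, with 51 and 62 expected counts in control libraries against 11 and 21 in mimic libraries. In normalized CPM it was at 1.33 and 2.00 against 0.35 and 0.59, without overlap. Its log2 fold change was the largest in size among the tested members, at -1.78 ± 0.40, with an adjusted p of 0.0591. DESeq2 gave 0.0483 and the fit without control 1 gave 0.035 at a log2 fold change of -2.07, while the adjusted p was 0.211 at -1.47 without mimic 3. Ldha made up at least 99.8% of lactate dehydrogenase TPM in every library.

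In the oxidative pentose phosphate branch, Pgd had a larger difference than its replicate spread without passing the threshold. Pgd encodes 6-phosphogluconate dehydrogenase, the second NADPH-yielding step, at chr4:149149991-149166771 (GRCm38, reverse strand). It was at 189 and 271 normalized CPM in control libraries against 409 and 352 in mimic libraries, without overlap. Its log2 fold change was 0.73 ± 0.17 (1.66-fold, adjusted p = 0.0636). DESeq2 gave an adjusted p of 0.00168. The log2 fold change of Pgd was 1.01 without control 2 and 0.83 without mimic 4. It was smaller without control 1 (0.48) and without mimic 3 (0.62). G6pdx, the entry enzyme glucose 6-phosphate dehydrogenase, and Taldo1, transaldolase, were chosen for description after their values were seen. G6pdx was at 57.9 and 69.2 against 91.0 and 82.2 normalized CPM (log2 fold change 0.45 ± 0.12, adjusted p = 0.082). Taldo1 was at 165 and 225 against 250 and 254 (0.37 ± 0.15, adjusted p = 0.172). Without control 2 the log2 fold changes of G6pdx and Taldo1 were 0.59 and 0.62, and without control 1 they were 0.32 and 0.16. Ikbkg, on the opposite strand at G6pdx, had 65.7% of the counts of G6pdx, with 1995 and 1516 in the controls and 1377 and 1773 in the mimic libraries.

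Pgls, the lactonase between G6pdx and Pgd, ranged from 34.4 to 40.4 normalized CPM with overlapping groups. H6pd, a related dehydrogenase of the endoplasmic reticulum, was at 34.6 and 36.01 in control libraries against 27.1 and 34.7 in mimic libraries (log2 fold change -0.19 ± 0.14, adjusted p = 0.436). In the non-oxidative branch, Tkt, transketolase, was the most abundant gene, at 669 to 738 normalized CPM, and Rpe, the ribulose phosphate epimerase, ranged from 64.7 to 74.5. Rpia, ribose 5-phosphate isomerase, was at 49.9 and 58.8 in control libraries against 60.1 and 61.4 in mimic libraries (0.16 ± 0.11, adjusted p = 0.409). Over both branches, 5 of 8 genes had log2 fold changes above 0, with a median of 0.13, and 0 passed the edgeR test. At an unadjusted p under 0.05, G6pdx, Pgd and Taldo1 were higher, and DESeq2 called G6pdx and Pgd. Of 8 proliferation genes measured beside them, Mcm2 was called higher, 7 were above 0 and the median was 0.16. At an unadjusted p under 0.05, 3 of the 8 were higher (Mcm2, Mcm5 and Ccna2), and DESeq2 called 2 higher. Mki67, Top2a and Cdk1 lay near 0, at -0.01, 0.01 and 0.02. The part of the proliferation genes in the pentose phosphate values was not tested.

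**Figure D5:**
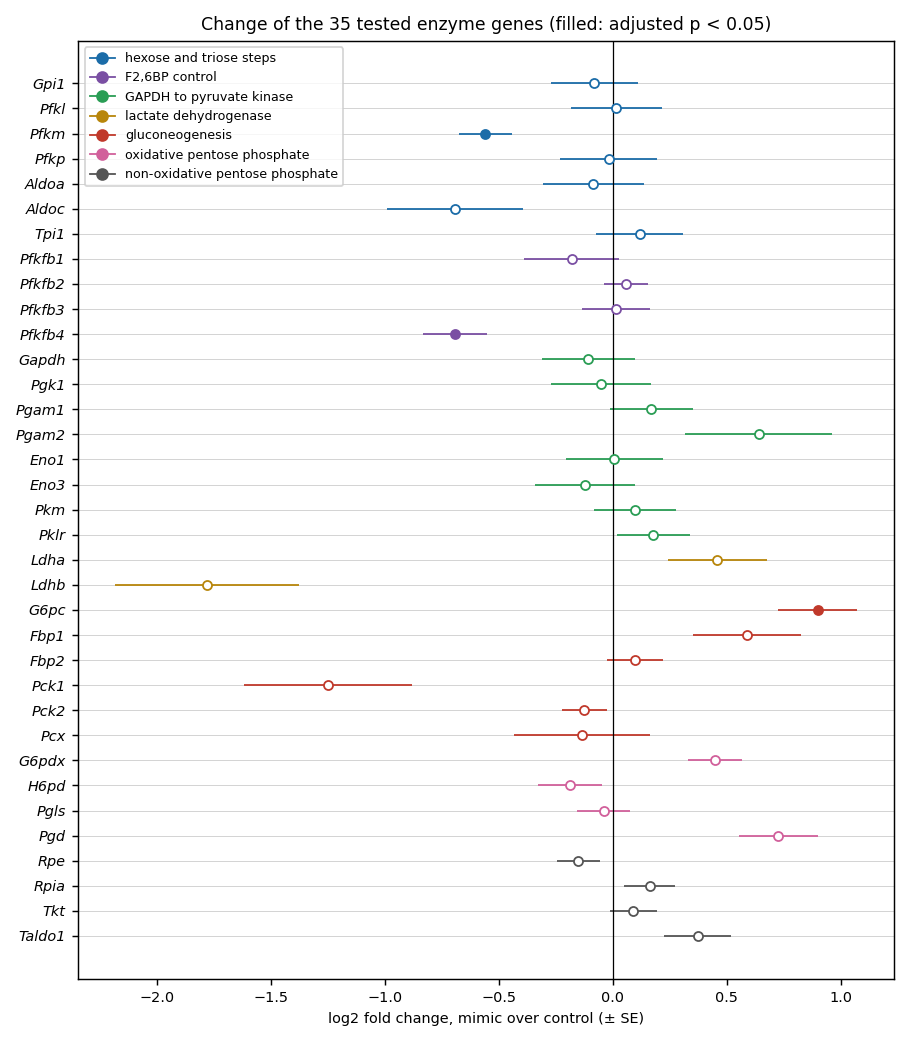
The log2 fold change of mimic over control with its SE (edgeR quasi-likelihood test, n = 2 per group) is plotted for the 35 tested members, coloured by role, and filled symbols mark an adjusted p under 0.05. G6pc (0.90) lies to the right and Pfkm (-0.56) and Pfkfb4 (-0.69) to the left, while the abundant glycolytic enzymes lie near 0 and the median is 0.01.

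The genes next to these enzymes in the pathway were covered by 62 further genes, of which 54 were tested, 2 rose and 3 fell. Over all 17155 tested genes, 1.28% rose and 2.29% fell at the same threshold. Of 10 tested genes for sugar entry and phosphorylation, Slc2a5, the fructose transporter GLUT5, rose from 20.004 and 32.9 to 129 and 91.5 normalized CPM (log2 fold change 2.06 ± 0.25, adjusted p = 0.0103). Of 9 tested minor isozymes and side steps, Pgp, a phosphatase that clears side products of glycolysis, rose from 40.6 and 52.9 to 79.8 and 75.3 (0.73 ± 0.14, adjusted p = 0.0383). Of 11 genes for the fate of pyruvate, 2 kinases that inhibit pyruvate dehydrogenase fell. Pdk4 had 7.88 and 3.84 normalized CPM in control libraries against 0.16 and 0.25 in mimic libraries (-4.80 ± 0.53, adjusted p = 0.00869), and Pdk2 had 57.3 and 52.5 against 29.2 and 35.2 (-0.77 ± 0.12, adjusted p = 0.0256). Of 8 transcription factors known to act on these genes, Ppargc1a, a coactivator of gluconeogenic genes, fell from 29.6 and 33.5 to 19.3 and 18.01 (-0.76 ± 0.12, adjusted p = 0.0259). Of these 8 factors, 6 were above 0, 3 of them at an unadjusted p under 0.05, and DESeq2 called 2 higher, Hif1a and Mlx. Hif1a, a subunit of the hypoxia-inducible factor, had 93.0 and 100.2 normalized CPM in control libraries against 139 and 127 in mimic libraries, without overlap (0.46 ± 0.10, adjusted p = 0.0525), and both were named after their values were seen. Among 10 tested fructose and glycogen genes and 6 of the glucose 6-phosphate and pentose side, edgeR and DESeq2 called 0, and at an unadjusted p under 0.05 there was 1 higher gene in the former list and 1 lower gene in the latter.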

How the data were processed

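RNA-seq libraries of mouse SI organoids were used, 2 with a miRNA mimic control and 2 with a miR-181a-5p mimic. The authors used Trimmomatic for trimming of the single reads and RSEM with GRCm38 transcripts, and deposited expected counts per gene, which are not normalized. The deposited TPM were scaled by the authors for transcript length and library size. The methods describe depletion of ribosomal RNA and the labels poly(A) enrichment; strand use in counting is not given in the sources used here. In each table, 3 columns matched no sample and were not used. The total was 31104884 to 38111731 expected counts per library, so with 2 libraries per group the spread between libraries, and not depth, set the precision except for members with few counts.

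Expected counts were rounded and compared between groups in R 4.3.3 by the edgeR 4.0.16 functions glmQLFit (non-legacy form) and glmQLFTest, after filterByExpr, TMM scaling and estimateDisp, with Benjamini-Hochberg adjustment over 17155 genes. Every adjusted p is from this edgeR test unless another is named. The SE is the log2 fold change divided by the square root of F. The smallest exact permutation p for 1 gene in this design is 0.333. Symbols were matched for 55141 of 55487 identifiers. Near-identical copies were found with BLAST 2.17.0 (at least 95% identity over 50% of a transcript and 100 bases). 3' UTRs were from GENCODE M21, and miRNA and promoter sequences from RefSeq.

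The members and gene lists were chosen with earlier results of these data known. Values in every library and a test are given for members with an adjusted p under 0.05, members with separated groups and a log2 fold change of at least 0.5 in size, the leading isozyme of each family, and members with a seed site. Others are given by range, and some genes of the lists are not reported here. Alternatives were edgeR's exact, likelihood-ratio, robust and legacy tests, DESeq2 1.42.0, RLE and no factors, no filter or at least 10 counts in every library, limma 3.58.1 on TPM after log2 with a pseudocount of 1 or 0.1 (genes of 1 TPM or more in 2 libraries, or unfiltered with 1; such fold changes understate low genes), added copies, and leaving out each library. The fit on 3 libraries assumes that the lone library varies like the other group. Plots were drawn with matplotlib 3.10.9.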

Additional observations from a re-analysis of the deposited data

How the results depend on the processing

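The counts of 1 higher and 2 lower member were the same genes with the robust, legacy (added after seeing the data) and RLE forms and with copies added. edgeR's exact and likelihood-ratio tests called 3 higher (G6pc, G6pdx, Pgd) and 4 lower (Pfkm, Pfkfb4, Ldhb, Pck1), and DESeq2 3 higher and 3 lower. Of all 17155 genes, the exact test called 761 higher and 1027 lower, and the likelihood-ratio test 792 and 1072. DESeq2 called 646 and 653 of 14105 genes. Each of these tests called more genes in both directions than the main test, so the added members came with more calls throughout. Requiring 10 counts in every library gave 1 higher and 3 lower (184 and 371 of 15573 genes). Library totals alone gave 1 higher and 0 lower (272 and 313 of 17155 genes). Without a filter on counts, and with limma on log2(TPM + 1), log2(TPM + 0.1) and unfiltered log2(TPM + 1), 0 were higher and 0 lower. Over all genes these settings called, in this order, 67 higher and 125 lower, 32 and 43, 11 and 16, and 2 and 0. G6pc, Pfkm and Pfkfb4 kept their direction in all alternatives. Leaving out 1 library gave a median log2 fold change of the members from -0.14 to 0.22. Pfkp turned to 0.0085 with library totals and to 0.15, 0.15 and 0.15 on the 3 TPM scales, and Eno1 to -0.0049 with at least 10 counts in every library. With 1 library left out, Pfkp ranged from -0.34 to 0.39, Aldoa from -0.39 to 0.18, Pgam1 from -0.092 to 0.48, Eno1 from -0.25 to 0.31, Pkm from -0.12 to 0.29, Pklr from -0.050 to 0.44 and Fbp2 from -0.058 to 0.27. The cause was not tested. The 8mer site was in 0 members, and with any annotated 3' UTR 7 members (Pfkfb2 added) held a 7mer-m8 site. The median log2 ratios over the glycolytic steps, control 2 over control 1 and mimic 4 over mimic 3, were 0.42 and 0.38 with library totals. In TPM they were 0.48 and 0.49 (added after seeing the data). Low counts limit Ldhb, Pck1, Pgam2 and Eno2. No paired analysis was possible because the groups share no replicate number.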
